A study of Mus musculus with 6 samples.

Results

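The transcription factor p53 and the proteins that hold it in check were followed at the RNA level in erythroblasts, the nucleated precursors of red cells, with and without the histone methyltransferase Setd8. The genes were Trp53, which encodes p53, and 5 inhibitors, Mdm2, Mdm4, Ccng1, Ppm1d and Usp7. They were chosen by name, 6 of 23284 genes counted, and all 6 passed the filter on low counts that left 10512 genes to test. Polyadenylated RNA came from C57BL/6 mouse embryos at E10.5, mid-gestation, from live cells sorted as positive for Ter119, an antigen of the red cell lineage, and CD71, the transferrin receptor. The series text gives fetal blood as the origin of the cells, whereas fetal liver is what the sample labels say.

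The null group (3 libraries, genotype SETD8fl/fl EpoR Cre) carried floxed Setd8 alleles and Cre recombinase under Epor, the erythropoietin receptor gene that erythroid cells use. The control group (3 libraries) was mixed. Control replicates 1 and 3 carried the Cre with wild-type Setd8 (Setd8 +/+ EpoRCre), and control replicate 2 carried floxed alleles without Cre (Setd8 fl/fl EpoR WT). The titles of control replicates 1 and 2 and null replicate 1 have no trailing letter (the unlettered set), and those of control replicate 3 and null replicates 2 and 3 have one (the lettered set). The sources used here do not say what the letter stands for. Each null library was therefore also read against the controls of its own set.

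p53 is made continuously in most cells and is kept low mainly by degradation of the protein. Mdm2 is the ubiquitin ligase that marks p53 for the proteasome, and its gene is itself switched on by p53, which closes a negative feedback loop. Mdm4 is a relative of Mdm2 that binds and blocks the activation domain of p53 and pairs with Mdm2. Ccng1 encodes cyclin G1, which brings the phosphatase PP2A to Mdm2, and Ppm1d encodes Wip1, a phosphatase that removes activating phosphates from p53 and from the kinases upstream of it. Both genes are known p53 targets. Usp7 is a deubiquitinase that stabilises Mdm2 and Mdm4 and can also act on p53. Setd8 places a single methyl group on histone H4 and is also known to methylate p53.

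The 250 bases before the start site were searched for the p53 half-site consensus, the sequence of 10 bases that p53 binds in pairs. The consensus reads the same on both strands. The windows come from RefSeq on GRCm38.p6 and were matched by symbol, with a window for 6 of the 6 genes. Exact half-sites were present in the windows of 4 of the 6 genes, Trp53, Mdm2, Ccng1 and Ppm1d, and 7.13% of all 32851 RefSeq windows of that length hold one. Those 4 windows are shown because they include genes that rose in null cells and genes that did not, and capitals mark the half-sites, in Ccng1 together with the adjoining second half-site. They lie at chr11:40755287-40755536 (Ccng1, minus strand), chr10:117710759-117711008 (Mdm2, minus strand), chr11:69580109-69580358 (Trp53, plus strand) and chr11:85311004-85311253 (Ppm1d, plus strand).
Ccng1: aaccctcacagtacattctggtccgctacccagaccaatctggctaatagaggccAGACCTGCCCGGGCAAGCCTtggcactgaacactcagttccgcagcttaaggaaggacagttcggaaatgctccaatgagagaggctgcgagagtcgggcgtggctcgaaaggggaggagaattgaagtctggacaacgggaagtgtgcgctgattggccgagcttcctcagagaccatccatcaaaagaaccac
Mdm2: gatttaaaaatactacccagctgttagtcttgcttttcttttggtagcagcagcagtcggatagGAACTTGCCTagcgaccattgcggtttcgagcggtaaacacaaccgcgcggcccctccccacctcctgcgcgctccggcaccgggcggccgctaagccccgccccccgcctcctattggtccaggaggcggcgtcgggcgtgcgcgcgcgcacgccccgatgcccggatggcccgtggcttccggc
Trp53: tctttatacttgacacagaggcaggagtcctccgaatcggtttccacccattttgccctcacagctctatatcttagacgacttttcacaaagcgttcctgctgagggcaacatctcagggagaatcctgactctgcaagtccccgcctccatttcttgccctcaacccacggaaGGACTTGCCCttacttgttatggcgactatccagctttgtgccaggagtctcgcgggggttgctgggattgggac
Ppm1d: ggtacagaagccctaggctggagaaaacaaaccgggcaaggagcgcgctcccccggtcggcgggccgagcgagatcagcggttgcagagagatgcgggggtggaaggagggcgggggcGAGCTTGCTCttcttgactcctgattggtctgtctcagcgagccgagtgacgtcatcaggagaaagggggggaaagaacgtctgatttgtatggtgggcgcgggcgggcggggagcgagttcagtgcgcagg
In Ccng1 the exact half-site GGGCAAGCCT starts 185 bases before the start site and directly follows a half-site with 1 mismatch, so that both together form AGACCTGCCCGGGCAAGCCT. Pairs were counted only where both half-sites kept the C and the G that the consensus fixes. By that rule a pair without a gap and with at most 1 mismatch is present in 19 of the 32851 windows (0.0578%). With up to 2 mismatches and a gap of up to 13 bases, a pair was found in 3.34% of all windows and, among the 6 genes, in that of Ccng1. No exact half-site was found in the windows of Mdm4 and Usp7, which says only that these letters are not in those windows. The p53 sites known to drive Mdm2 lie in its first intron, outside the window shown. A match describes the sequence, and binding was not measured here.

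Counts per library ran from 7756940 to 21434719. Between the title sets, 28.5% of the tested genes differed (set term in edgeR's quasi-likelihood test, adjusted p under 0.05). The floxed gene itself, Setd8, stood at 74.0 and 74.8 CPM in control replicates 1 and 2 and at 48.9 in null replicate 1, and at 203.5 CPM in control replicate 3 against 100.3 and 96.4 in null replicates 2 and 3, and its set-adjusted fall did not pass without control replicate 3 (adjusted p = 0.134). CPM here are counts scaled to a common library size with TMM factors. The counts cover the whole gene, so reads from exons outside the floxed part may be among them. The 10512 genes were fitted in 2 ways, by group alone and with a term for the title set (set-adjusted), with edgeR's quasi-likelihood test and Benjamini-Hochberg (BH) adjustment. With group alone 1.14% of tested genes were called higher and 0.00951% lower in null cells, and set-adjusted 8.65% and 4.16%, all at an adjusted p under 0.05. The median gene had a log2 ratio of 0.13 in the first fit and 0.04 in the second. DESeq2, run on genes with at least 1 count, called 795 genes higher and 161 lower with group alone, and 1356 and 902 set-adjusted. Shares of all genes at an unadjusted p were not taken for these 2 fits. Counts of list genes at that p, or in DESeq2, therefore cannot be read against the shares above. In bulk RNA, fewer cells of a type and less RNA per cell cannot be told apart.

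Of the inhibitors, 3 rose in null cells, while Trp53 itself did not pass. Mdm2 rose 10.2-fold and Ccng1 11.3-fold set-adjusted, and both passed in both fits. Mdm4 rose 2.35-fold and passed set-adjusted only. Ppm1d and Trp53 did not pass, and Usp7 was lower in every null library without passing. With group alone 2 of the 6 genes were called higher and 0 lower, and set-adjusted 3 and 0, against 1.14% and 0.00951%, and 8.65% and 4.16%, of all tested genes. At an unadjusted p under 0.05, 1 of the 6, Usp7, was lower in each fit, and DESeq2 called 0 lower with group alone and 1 set-adjusted. For 3 of the 6 the null libraries were all higher than the controls (14.9% of all tested genes), and for 1 they were all lower (9.16%). The null-to-control ratio had the same sign within both sets for 5 of the 6, all but Ppm1d, as for 68.6% of tested genes. Without null replicate 1, 2 of the 6 passed as higher set-adjusted, and in the fits with group alone 0 passed without control replicates 1 or 2 or null replicates 2 or 3.

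**Figure D1:**
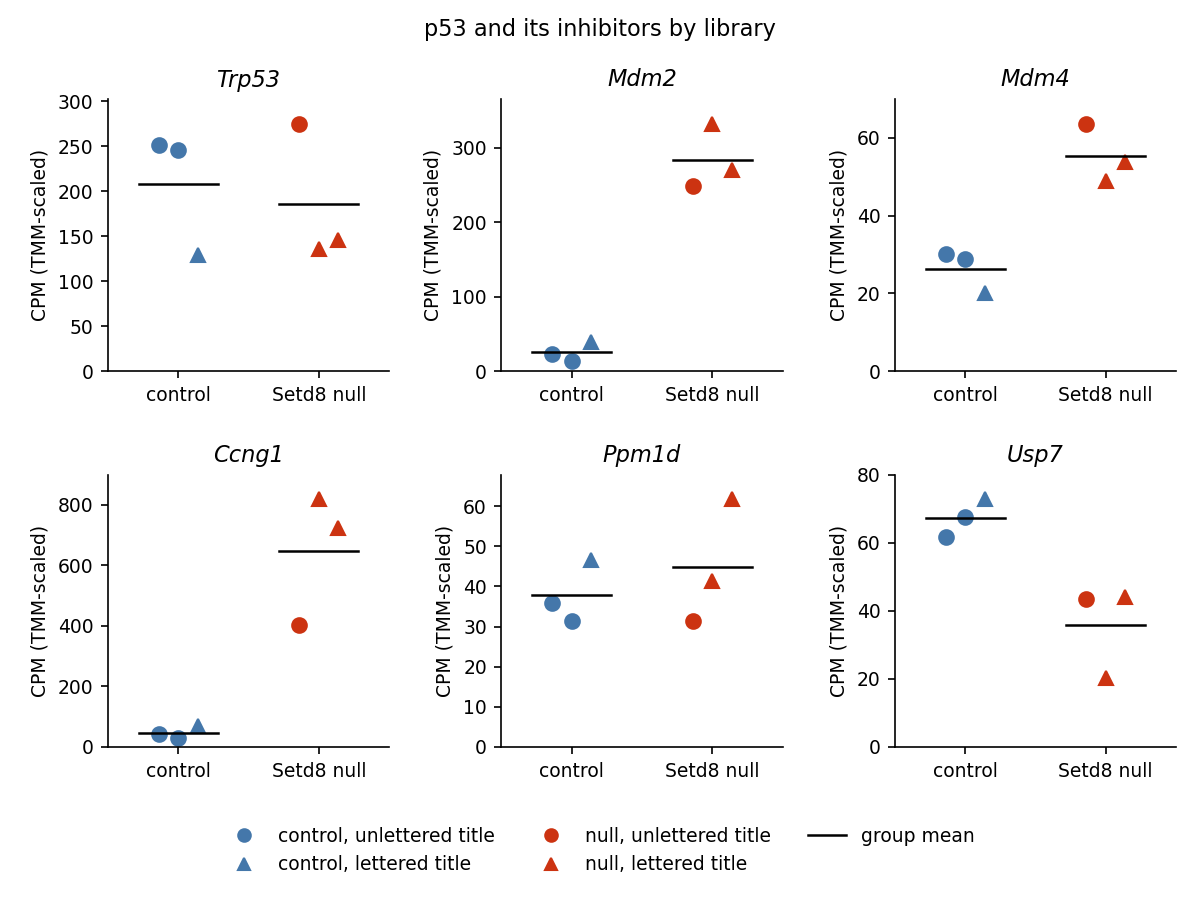
CPM of each gene in the 6 libraries (vertical axis from 0, a scale per panel), with controls in blue, null libraries in red, circles for unlettered and triangles for lettered titles, and a line at the group mean. Mdm2, Mdm4 and Ccng1 separate the groups without overlap, Usp7 does so in the other direction, and Trp53 separates the title sets, with lettered libraries between 129 and 146 CPM and unlettered ones between 246 and 275.

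Trp53 is the gene whose protein the loop controls. Its level was 251, 246 and 129 CPM in control replicates 1, 2 and 3 and 275, 136 and 146 in null replicates 1, 2 and 3. The 3 libraries of the unlettered set were all high and the 3 of the lettered set all low, whatever the genotype, and the groups overlapped. With the set term, null cells had a log2 ratio to control of 0.14 (SE 0.15, edgeR adjusted p = 0.599), with a 95% interval from 0.880-fold to 1.38-fold. With group alone the ratio was -0.17 (SE 0.39, adjusted p = 0.891), so the sign differed between the fits. Taken set by set, it came to 0.15 among unlettered and 0.13 among lettered libraries. The title set term for Trp53 was -0.95 for lettered against unlettered (SE 0.15, adjusted p = 0.000447 by the same test), and in size it exceeded both of the genotype ratios above.

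Mdm2, the ligase of the loop, stood at 22.7, 14.3 and 39.5 CPM in control replicates 1, 2 and 3. In null replicates 1, 2 and 3 it stood at 248.7, 332 and 271 CPM. The groups did not overlap, and the lowest null library lay 6.30 times above the highest control. Among the controls, the library without Cre was the lowest and the lettered library the highest, each a single library. Set-adjusted, the log2 ratio was 3.35 (SE 0.24, edgeR adjusted p = 1.41e-05), and with group alone 3.48 (SE 0.42, adjusted p = 0.0189). The null library of the unlettered set lay 13.7-fold above its controls, and those of the lettered set 7.57-fold above theirs. That difference between the sets did not pass the interaction test (log2 difference -0.85, SE 0.38, adjusted p = 0.688 over all genes, unadjusted p = 0.0502), in which 0.00951% of tested genes passed. At an unadjusted p under 0.05, 0 of the 6 genes and 7.21% of tested genes had an interaction. The ratio of Mdm2 exceeded that of 95.3% of tested genes set-adjusted. Without control replicate 2, so that every control carries Cre, it was 3.13 (set-adjusted, adjusted p = 1.65e-05).

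Ccng1, the gene of cyclin G1, had the highest ratio of the 6 in both fits over all libraries, but below that of Mdm2 within the unlettered set (3.51 against 3.78), and the order of the 2 was not tested. Its levels were 43.6, 28.3 and 68.4 CPM in control replicates 1, 2 and 3 and 402, 817 and 723 in null replicates 1, 2 and 3. The groups did not overlap, and in both groups the lettered libraries were the higher ones. The log2 ratio was 3.50 set-adjusted (SE 0.20, edgeR adjusted p = 1.97e-06) and 3.79 with group alone (SE 0.47, adjusted p = 0.0189). It was 3.51 within the unlettered and 3.49 within the lettered set. The title set term was 0.94 (SE 0.18, adjusted p = 0.00227), higher in the lettered set and opposite in sign to that of Trp53.

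With group alone, Mdm2 and Ccng1 lost their call when a single library was left out. Mdm2 had adjusted p = 0.103, 0.0602, 0.121 and 0.0818 without control replicates 1 and 2 and null replicates 2 and 3, and Ccng1 0.103, 0.0790, 0.111 and 0.0824. Set-adjusted, both passed without any one library, with the highest adjusted p 0.00397 for Mdm2 and 0.000843 for Ccng1, each without null replicate 1.

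Mdm4, the partner of Mdm2 that blocks p53 without degrading it, was counted at 30.2, 28.8 and 20.04 CPM in control replicates 1, 2 and 3. It reached 63.6, 49.0 and 53.8 CPM in null replicates 1, 2 and 3. Null and control libraries did not overlap, the lowest null one 1.62 times above the highest control. The log2 ratio was 1.23 set-adjusted (SE 0.22, edgeR adjusted p = 0.00422), 1.11 within the unlettered and 1.35 within the lettered set. With group alone it was 1.08 (SE 0.29) and did not pass (adjusted p = 0.134). Without null replicate 1 the set-adjusted ratio was 1.35 and no longer passed (adjusted p = 0.0836); the unlettered set then holds no null library.

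Ppm1d, the gene of the Wip1 phosphatase, is a p53 target that did not pass here. It was measured at 35.9, 31.4 and 46.6 CPM in control replicates 1, 2 and 3 and at 31.5, 41.4 and 61.7 in null replicates 1, 2 and 3. The groups overlapped, with null replicate 1 beside control replicate 2 at the bottom and null replicate 3 at the top. The set-adjusted log2 ratio was 0.03 (SE 0.24, edgeR adjusted p = 0.958), with a 95% interval from 0.706-fold to 1.47-fold. With group alone it was 0.24 (SE 0.34, adjusted p = 0.813), with an interval from 0.679-fold to 2.06-fold. The intervals of Ppm1d lie below those of Mdm2 and Ccng1 in both fits (from 7.03-fold and 8.37-fold upward set-adjusted, and from 5.61-fold and 6.49-fold upward with group alone). The sign of the set-adjusted ratio flipped with the scaling, at -0.01 with DESeq2 size factors and -0.11 with library sizes without globins.

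Usp7, the deubiquitinase that stabilises Mdm2, had 61.8, 67.5 and 72.7 CPM in control replicates 1, 2 and 3 and 43.5, 20.2 and 44.0 in null replicates 1, 2 and 3. Every null library lay below every control, with null replicate 2 the lowest. The log2 ratio was -0.88 set-adjusted (SE 0.29, 95% interval from 0.353-fold to 0.841-fold) and did not pass over all genes (adjusted p = 0.0674, unadjusted p = 0.0103 in edgeR). With group alone it was -0.91 (SE 0.35, adjusted p = 0.280). Set-adjusted, it passed with library sizes without globins (log2 ratio -1.01, adjusted p = 0.0372), with all counted genes tested (-0.92, adjusted p = 0.00190), with DESeq2 (-0.92, adjusted p = 0.0365) and without null replicate 3 (-1.17, adjusted p = 0.0229).

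**Figure D2:**
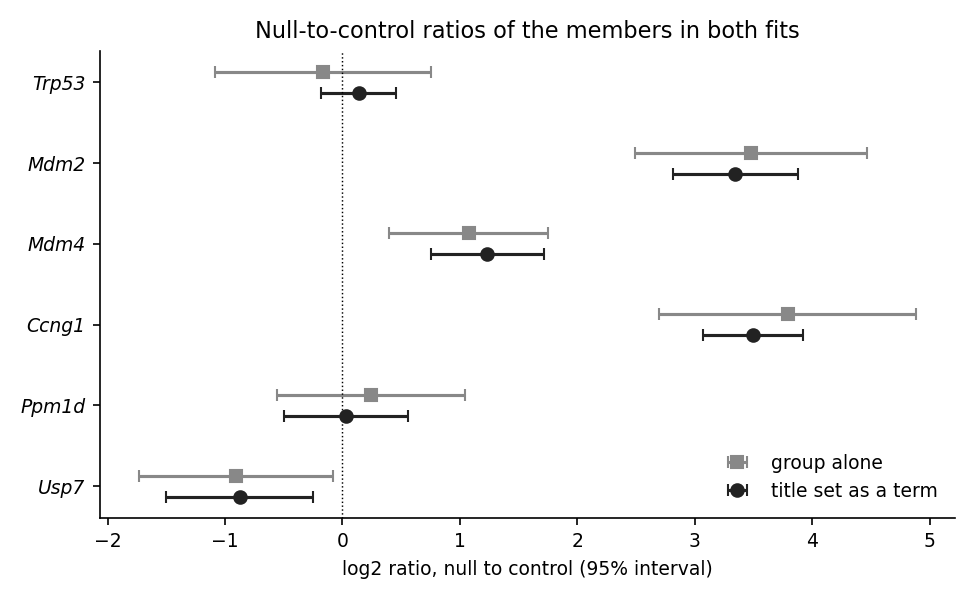
Log2 ratio of null to control for each gene with its 95% interval (horizontal axis), with group alone (squares) and with the title set as a term (circles), and a dotted line at no difference. Mdm2 and Ccng1 lie above 3 in both fits and Mdm4 near 1, the intervals of Trp53 and Ppm1d include 0, and those of Usp7 lie below 0 although its adjusted p did not pass.

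Reads of Y-linked genes numbered 792, 9 and 0 in control replicates 1, 2 and 3 and 2814, 2660 and 2330 in null replicates 1, 2 and 3, and those of Xist 5, 3913 and 2240 and 28, 189 and 3 in the same order. The groups were thus not balanced for sex: control replicates 2 and 3 had Xist and at most 9 Y-linked reads, while control replicate 1 and the null libraries had 792 or more Y-linked reads, null replicate 2 with some Xist as well. The part of sex in the ratios was not tested. Between null replicate 1 and control replicate 1, both of the unlettered set and with such Y-linked reads, Mdm2 stood at 248.7 against 22.7 CPM, Ccng1 at 402 against 43.6 and Mdm4 at 63.6 against 30.2. No test is possible on 1 library each. Control replicate 1 was also the shallowest library. Of the 3 libraries whose tables list it, it had the highest share of reads assigned to no counted feature, 42.9%. That share was 7.72% in control replicate 2 and 6.07% in null replicate 1.

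The reads of each inhibitor were next set against the reads of Trp53 in the same library, since such a ratio does not depend on library scaling. For each read of Trp53 there were 0.0902, 0.0581 and 0.306 reads of Mdm2 in control replicates 1, 2 and 3 and 0.904, 2.45 and 1.85 in null replicates 1, 2 and 3. The ratio of Ccng1 to Trp53 was 0.173, 0.115 and 0.530 in the controls and 1.46, 6.02 and 4.94 in the null libraries, in the same order. Both ratios separated the groups in 6 of 6 libraries, and within each group the lettered libraries had the higher ones. The mean log2 difference was 3.77 for Mdm2 (13.7-fold) and 4 for Ccng1 (16-fold), with an exact 2-sided permutation p of 0.1 in each, which is the smallest that 3 against 3 libraries allow (adjusted p = 0.15 over the 6 ratios). Trp53 itself was lower in the lettered libraries, which are 2 of the 3 null libraries and 1 of the 3 controls. Within the unlettered and the lettered set the log2 difference was 3.64 and 2.80 for Mdm2 and 3.37 and 3.36 for Ccng1.

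The ratio of Mdm4 to Trp53 reads lay between 0.117 and 0.155 in controls and between 0.231 and 0.367 in null libraries, again without overlap (mean log2 difference 1.27, exact permutation p = 0.1, adjusted p = 0.15). Mdm2 was also set against its partner Mdm4. There were 0.750, 0.496 and 1.97 reads of Mdm2 for each read of Mdm4 in control replicates 1, 2 and 3 and 3.91, 6.78 and 5.04 in null replicates 1, 2 and 3, a mean log2 difference of 2.50 (5.67-fold, exact permutation p = 0.1, adjusted p = 0.15). Within the unlettered set this difference was 2.68 and within the lettered set 1.57. The ratios of Ppm1d to Trp53 overlapped between the groups, from 0.128 to 0.361 in controls and from 0.114 to 0.421 in null libraries (mean log2 difference 0.39, exact permutation p = 0.8). Those of Usp7 ran from 0.246 to 0.563 and from 0.149 to 0.301, and overlapped as well (-0.81, exact permutation p = 0.3). Within the sets the Usp7 difference was -0.72 and -1.41, and that of Ppm1d -0.24 and -0.01.

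**Figure D3:**
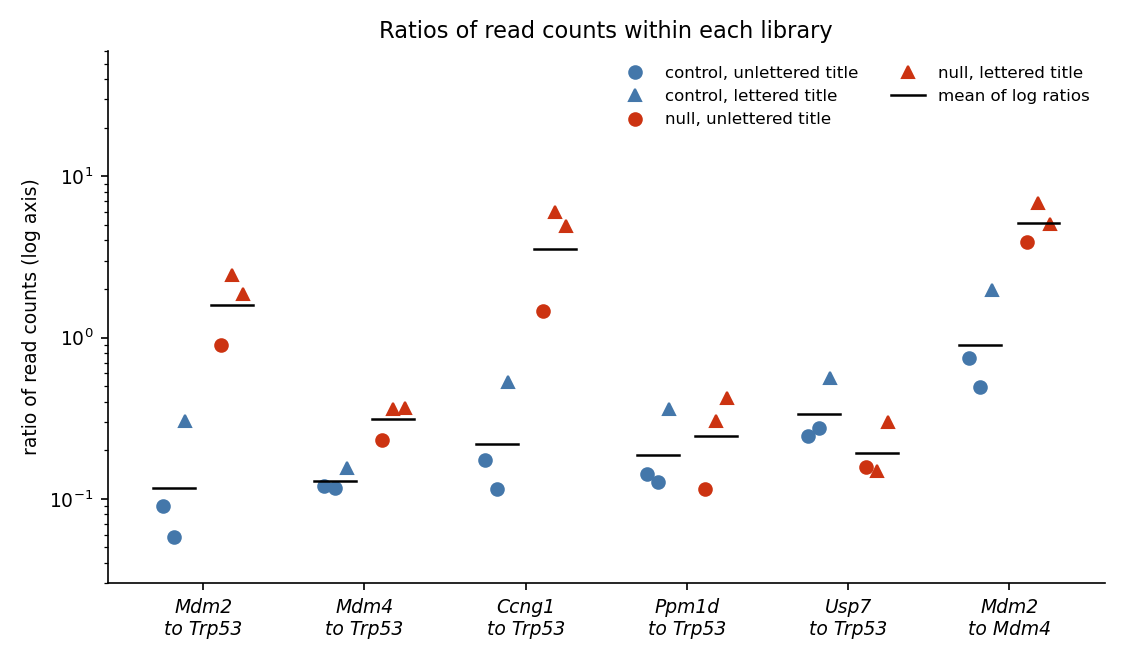
Reads of the first gene for each read of the second in every library (log axis), coloured by group and shaped by title set, with a line at the mean of the log ratios. The Mdm2, Mdm4 and Ccng1 ratios to Trp53, and that of Mdm2 to Mdm4, are higher in every null library than in any control, while the Ppm1d and Usp7 ratios overlap.

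Levels of different genes were compared per kilobase of exon, with exon lengths from GENCODE M21 (GRCm38), which is not the mm9 annotation behind the counts. In controls Trp53 was the most abundant of the 6, at 112 ± 36.9 CPM per kilobase (SD, n = 3). Usp7 (13.8 ± 1.12), Ccng1 (13.3 ± 5.76) and Ppm1d (13.1 ± 2.68) followed with overlapping ranges. Mdm2 came next at 8.10 ± 4.08, overlapping with Ppm1d and Ccng1, and Mdm4 was lowest at 2.43 ± 0.507, below Mdm2 in all 3 controls. That order of the 2 rests on the exon lengths, 10859 bases for Mdm4 and 3145 for Mdm2. In reads Mdm4 exceeded Mdm2 in control replicates 1 and 2 (204 against 153 and 540 against 268). In control replicate 3 it did not (431 against 849). In null cells Ccng1 had the highest mean, 184 ± 61.9 CPM per kilobase, followed by Trp53 at 99.5 ± 41.5 and Mdm2 at 90.3 ± 13.7, and the ranges of neighbours in this order overlapped. Ppm1d (15.5 ± 5.30), Usp7 (7.35 ± 2.79) and Mdm4 (5.11 ± 0.688) came after them, the last 2 with overlapping ranges. In both lettered null libraries Mdm2 exceeded Trp53 per kilobase (106 against 72.7 and 86.1 against 78.4), and in null replicate 1 it did not (79.1 against 147).

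The other regulators of p53 and Mdm2 were counted from lists drawn up by function. Among 11 other ubiquitin ligases known to act on p53, all tested, 0 passed in either fit (median log2 ratio -0.11 set-adjusted). That is near the shares of all tested genes, 8.65% higher and 4.16% lower set-adjusted, and 1.14% and 0.00951% with group alone. Huwe1, a large ligase of p53 and other substrates, had the smallest p (log2 ratio -0.64, SE 0.24, edgeR adjusted p = 0.101). It passed as lower in DESeq2 (-0.68, adjusted p = 0.0396), with all counted genes tested (-0.68, adjusted p = 0.0304) and without control replicate 3 (-1.08, adjusted p = 0.0418). Ube3a, the ligase E6AP, had a ratio of -0.65 (SE 0.28, adjusted p = 0.155 in edgeR). Rchy1, the p53-induced ligase Pirh2, averaged 41.8 ± 1.94 CPM over controls and 56.4 ± 8.80 over null libraries (SD, n = 3 each, adjusted p = 0.169 in edgeR). Set-adjusted, 1 was higher and 2 were lower at an unadjusted p under 0.05, and DESeq2 called 0 and 1. With group alone all 4 of these counts were 0. Set-adjusted in edgeR, 2 of them passed as higher without control replicate 1, and 1 as lower, Huwe1, without control replicate 3.

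The 10 other deubiquitinases that act on p53, Mdm2 or Mdm4 gave 0 calls by group alone. That fit called 1.14% of all tested genes higher and 0.00951% lower. Of the 10, 3 were lower at an unadjusted p under 0.05 and 1 in DESeq2. Set-adjusted, 2 of them fell (4.16% of all tested genes) and 0 rose. Usp10, which deubiquitinates p53 in the cytoplasm, fell from a control mean of 183 ± 37.4 CPM to 77.6 ± 12.8 (SD, n = 3 each; set-adjusted log2 ratio -1.17, SE 0.21, edgeR adjusted p = 0.00423). Usp15, which acts on Mdm2, fell from 242 ± 29.5 to 135 ± 14.6 CPM (-0.76, SE 0.16, adjusted p = 0.00955). Neither passed without null replicate 1 (adjusted p = 0.111 and 0.113). The median of the list was -0.15 set-adjusted.

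Of 10 kinases that phosphorylate p53, Mdm2 or Mdm4 after damage or stress, none was called by group alone. That fit called 1.14% of all tested genes higher and 0.00951% lower. Among the 10, 2 were lower at an unadjusted p under 0.05 and 0 in DESeq2. With the set term 3 fell and 0 rose (4.16% and 8.65% of all tested genes). These were Hipk2 (log2 ratio -0.70, SE 0.17), the checkpoint kinase Chek1 (-1.17, SE 0.31) and Mapk14, the p38 kinase (-0.95, SE 0.27), with adjusted p = 0.0176, 0.0301 and 0.0384 (edgeR quasi-likelihood). With group alone the sign of Mapk14 turned without null replicate 1 (0.14) or control replicate 3 (0.46). Set-adjusted, 0 of the 3 passed without control replicate 1, null replicate 1 or null replicate 2, 1 passed without control replicate 2 and 2 without control replicate 3. The damage kinase Atm stood at 16.0, 21.7 and 10.6 CPM in control replicates 1, 2 and 3 and 5.14, 9.45 and 4.70 in null replicates 1, 2 and 3, and did not pass in edgeR (set-adjusted log2 ratio -1.22, adjusted p = 0.131; from -1.89 without control replicate 3 to -0.59 without null replicate 1). It passed in DESeq2 (-1.27, adjusted p = 0.0490).

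Among 14 writers, erasers and readers of p53 acetylation and methylation, 13 were tested. By group alone 0 were called, against 1.14% of all tested genes higher and 0.00951% lower. Of the 13, 1 was lower at an unadjusted p under 0.05 and 0 in DESeq2. Adding the set, 1 rose and 1 fell, with 8.65% and 4.16% of all tested genes called in these directions. The one that fell was Setd8 itself (log2 ratio -0.83, SE 0.17, edgeR adjusted p = 0.00911). Smyd2, another lysine methyltransferase of p53, rose (1.52, SE 0.44, adjusted p = 0.0447), but stood at 21.9 CPM in the lettered and 2.67 and 1.44 CPM in the unlettered controls and did not pass without null replicate 1 (adjusted p = 0.616), nor without control replicates 1 or 2 or null replicate 2, nor with DESeq2 size factors (adjusted p = 0.0505).

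Of 12 nucleolar and ribosomal proteins that bind Mdm2, 10 were tested. The fit by group alone called 0 of them, against 1.14% of all tested genes higher and 0.00951% lower. At an unadjusted p under 0.05, 1 of the 10 was higher and 1 lower, and DESeq2 called 0. The set-adjusted fit called 2 higher and 1 lower, against 8.65% and 4.16% of all tested genes. Rps27l, itself a p53 target, had 248, 223 and 286 CPM in control replicates 1, 2 and 3 and 704, 428 and 323 in null replicates 1, 2 and 3 (set-adjusted log2 ratio 0.99, SE 0.23, edgeR adjusted p = 0.0195). Gltscr2, a nucleolar protein, had a ratio of 0.66 (SE 0.17, adjusted p = 0.0299; 0.0559 with library sizes without globins). Nucleolin, Ncl, fell from 1170 ± 45.7 to 711 ± 8.46 CPM, by 0.71 in log2 units (SE 0.14, adjusted p = 0.00791). Neither rise passed without any one of control replicates 1 and 2 and null replicates 1 and 2, and the fall of Ncl did not pass without null replicate 1. Cdkn2a, whose product Arf restrains Mdm2, was listed at 0 in all 6 libraries, as was the ribosomal protein gene Rpl26. Both were chosen for mention after their values were seen. The tested ribosomal protein genes of the list had 1670 reads or more in every library. Whether a 0 here reflects expression or the counting was not tested.

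The PP2A subunits, which include those that cyclin G1 recruits, gave no calls. Of 9 tested, 0 passed in either fit (median log2 ratio -0.07 set-adjusted), and the regulatory subunit Ppp2r5a had the smallest p (log2 ratio -1.10, edgeR adjusted p = 0.0952). Of all tested genes, 8.65% were called higher and 4.16% lower set-adjusted, and 1.14% and 0.00951% by group alone. Among 9 genes, 0 calls is near those shares. At an unadjusted p under 0.05, 1 was lower set-adjusted, as in DESeq2, and 0 by group alone in either. Among 6 paralogs of Ccng1, Ppm1d and Usp7, 0 passed with group alone (1 higher at an unadjusted p under 0.05 and in DESeq2) and 1 rose set-adjusted (8.65% of all tested genes), Ccng2, the gene of cyclin G2. It stood at 2.22, 0.426 and 12.9 CPM in control replicates 1, 2 and 3 and at 26.5, 103 and 92.9 in null replicates 1, 2 and 3. The groups did not overlap (set-adjusted log2 ratio 3.61, SE 0.49, edgeR adjusted p = 0.00166; 0.0611 without null replicate 1). The p53 relatives Trp63 and Trp73 had too few reads to be tested.

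**Figure D4:**
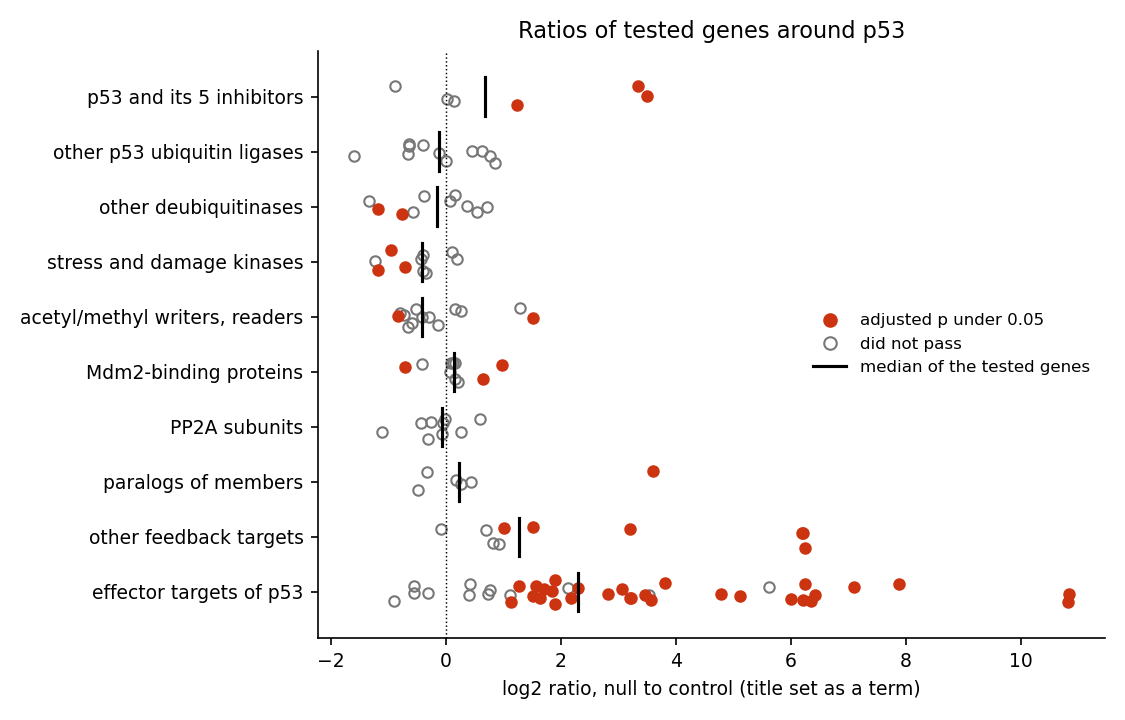
Set-adjusted log2 ratios of null to control (horizontal axis) for the tested genes of each list around p53 (rows; vertical position within a row is arbitrary), filled where the adjusted p is under 0.05, with a bar at the median. The filled points of the 2 lists of p53 targets all lie above 0, while the lists of ligases, deubiquitinases, kinases and PP2A subunits have medians from -0.41 to -0.07.

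Other p53 targets were called higher as well. Of 10 other targets that feed back on p53 or its kinases, 3 rose by group alone (1.14% of all tested genes) and 6 set-adjusted (8.65%), and 0 fell (median log2 ratio 1.27, against 0.04 over all tested genes). Trp53inp1, which promotes p53 phosphorylation, stood at 0.889, 0.533 and 2.42 CPM in control replicates 1, 2 and 3 and at 94.1, 123 and 113 in null replicates 1, 2 and 3 (set-adjusted log2 ratio 6.24, SE 0.35). Aen, a nuclease, rose from 21.3 ± 1.91 to 60.5 ± 4.84 CPM and Zmat3, an RNA-binding protein, from 3.82 ± 3.57 to 29.7 ± 2.73. Of 44 effector targets of p53, 41 were tested, 14 rose by group alone (1.14% of all tested genes) and 29 set-adjusted (8.65%; median 2.29). The adenylate kinase gene Ak1 was nearly unread in the controls (0, 1 and 1 reads, replicates 1 to 3) and had 1743, 1752 and 1217 reads in the null libraries. Targets this low in the controls passed the filter on low counts only with the null libraries, so the filter favoured a rise. Other called genes of both lists were as low in the controls, and how many was not counted. The lists were also drawn up with earlier results of these data known. The counts of both lists are therefore descriptions and not a test against the shares of all genes. Of these effector targets 0 fell, with 1 lower set-adjusted at an unadjusted p under 0.05 and in DESeq2. Cdkn1a, the cell cycle inhibitor p21, had a set-adjusted log2 ratio of 6.21 (SE 0.35) and the kinase gene Plk2 one of 6.42 (SE 0.47). Trp53inp1, Cdkn1a, Aen and Zmat3 are on both lists. Without null replicate 1 the set-adjusted counts were 2 and 19, and without control replicate 3 they were 4 and 26. With group alone they were 0 and 1 without null replicate 2, and from 1 to 2 and from 6 to 18 without any other library.

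Markers of the sorted cells and of other cell types were read beside these results. Of 14 erythroid markers 12 were tested, and set-adjusted 0 rose and 3 fell (4.16% of all tested genes), Tfrc, Epor and the embryonic globin gene Hba-x (log2 ratios -0.92, -1.08 and -0.60). Set-adjusted, 6 were lower at an unadjusted p under 0.05 and 6 in DESeq2, with no share of all genes taken at those settings. With group alone 0 were called, against 1.14% of all tested genes higher and 0.00951% lower. Of the 12, 1 was lower at an unadjusted p under 0.05 and 0 in DESeq2. Globin genes held 45.2, 44.4 and 37.1% of counts in control replicates 1, 2 and 3. In null replicates 1, 2 and 3 they held 39.9, 28.3 and 26.5%. Hba-x did not pass in any of the 6 fits that leave out 1 library, and 0 of the 12 passed in the fit without null replicate 1. Epor did not pass without control replicate 3 (set-adjusted edgeR adjusted p = 0.105) or null replicate 2 (0.0612) either. The Cre was under Epor, and only control replicate 2 was labelled EpoR WT. Without that library the Epor log2 ratio was -0.76, and the part of the Cre in the reads of Epor was not tested. The summed level of 12 macrophage markers was 2.67, 1.86 and 10.6 CPM in control replicates 1, 2 and 3 and 32.8, 42.9 and 92.3 in null replicates 1, 2 and 3. Set-adjusted, 3 of the 6 tested macrophage markers rose, Cd68, Csf1r and C1qb, against 8.65% of all tested genes (0 without null replicate 1 and 1 without control replicate 1). With group alone 1 rose, against 1.14%. Csf1r and C1qb stood at 0 CPM in control replicates 1 and 2. They too passed the filter on low counts only with the null libraries. Emr1, which encodes F4/80, had 0 reads in all controls and null replicate 1, 7 in null replicate 2 and 50 in null replicate 3 (chosen for mention after its values were seen). The 8 endothelial markers summed to between 0.479 and 1.49 CPM in controls and between 5.74 and 20.6 in null libraries. Emcn was at 0 throughout. Of them 2 were tested, Pecam1 and Tek, and both were higher set-adjusted, against 8.65% of all tested genes (0 without control replicate 1, null replicate 1 or null replicate 2). Both stood at 1.02 CPM or below in every control. They passed the filter on low counts only with the null libraries, so the filter favoured a rise. The 7 megakaryocyte markers summed to between 14.2 and 31.0 CPM in controls and between 40.5 and 83.6 in null libraries. Itga2b alone held 7.26, 8.79 and 21.0 CPM in controls and 36.6, 67.1 and 50.1 in null libraries (replicates 1 to 3). Of the 4 tested, 1 rose set-adjusted, Itga2b, against 8.65% of all tested genes (not without null replicate 1). For 1 other of the 4, every null library lay below every control. Hepatic (7) and mesenchymal (6) markers stayed at 4.85 CPM or below in sum in every library, with Alb and Dcn at 0. The part of these cells in the levels of Mdm2, Mdm4 and Ccng1 was not tested.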

How the data were processed

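Polyadenylated RNA of 6 libraries, 3 null and 3 control by the genotype label, was used as raw counts per gene symbol, which the authors deposited unnormalized, 1 table for each library. The submitters' processing notes list FastQC, Trimmomatic (0.32), TopHat2 (2.1.0), HTSeq (0.6.1) and edgeR, with build mm9. The sources used here give neither options nor the strand setting, so reads of a gene and of one opposite to it cannot be told apart. Lines naming no gene were left out of library sizes (in the unlettered tables, no feature 6.07% to 42.9% and not uniquely aligned 22.5% to 32.4% of the table). In each of the unlettered tables, 25 symbols turned into dates were mapped back to March and Septin genes.

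Counts were tested in R 4.3.3 with edgeR 4.0.16: filterByExpr by group, TMM, estimateDisp, glmQLFit (robust) and glmQLFTest, 2-sided, Benjamini-Hochberg over 10512 genes at 0.05. The fits had 4 (group alone), 3 (set-adjusted) and 2 (interaction) residual degrees of freedom. SEs are the log2 ratio over the root of F. Log2 ratios within a set are differences of mean log2 CPM (prior count 2). At the depths here 3 counts equal 0.140 to 0.445 TMM-scaled CPM. Code was tested on simulated data. Nothing in the labels says that libraries came from separate embryos, so p-values speak to the spread among these 6 samples, part of which may be technical.

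The genes, lists and tests were chosen with earlier results of these data known. From each list up to 4 genes are named, in order of their set-adjusted p, and any of a list with fewer than 3 tested genes. For likeness, the 5 genes with the highest Pearson r to Mdm2 and to Trp53 are named. Kat8 and Pidd1 were matched by their older symbols, Myst1 and Lrdd. Alternatives were DESeq2 1.42.0, its size factors, library sizes without globins, no filter beyond 1 count, 1 count added to the read ratios, and each library left out.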

Additional observations from a re-analysis of the deposited data

How the results depend on the processing

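With 1 library left out, the set-adjusted log2 ratio ran from 2.92 to 3.76 for Mdm2, from 3.36 to 3.61 for Ccng1, from 1.095 to 1.35 for Mdm4, from 0.04 to 0.13 for Trp53, from -0.21 to 0.14 for Ppm1d and from -1.19 to -0.59 for Usp7. With group alone it ran from 3.17 to 3.88, 3.52 to 4.10, 0.85 to 1.16, -0.57 to -0.03, -0.15 to 0.44 and -1.15 to -0.68 in the same order. Set-adjusted, Ppm1d stood at -0.008 with DESeq2 size factors, -0.107 with library sizes without globins, -0.013 with all counted genes and -0.015 with DESeq2, and Trp53 at -0.001 with library sizes without globins. Usp7 passed with library sizes without globins (-1.01), with all counted genes (-0.92) and with DESeq2 (-0.92). Mdm2, Ccng1 and Mdm4 kept their direction in all settings and, set-adjusted, their call in all but that of Mdm4 without null replicate 1. Over all genes, 120 were higher and 1 lower with group alone, 264 and 16 with all counted genes, 795 and 161 with DESeq2, 2 lower with library sizes without globins, and 3 to 109 higher and 0 to 2 lower with 1 library left out. Set-adjusted, 909 were higher and 437 lower. With library sizes without globins 690 were lower, with all counted genes 723 and with DESeq2 902, and with 1 library left out 162 to 869 were higher and 40 to 734 lower, lowest without null replicate 1. The read ratios to Trp53 ran from 3.27 to 4.47 for Mdm2, 1.15 to 1.49 for Mdm4, 3.54 to 4.64 for Ccng1, -0.005 to 0.94 for Ppm1d and -1.13 to -0.44 for Usp7, and that of Mdm2 to Mdm4 from 2.07 to 3.07. Of other named genes, the direction turned with group alone for Mapk14, from -0.96 to 0.46, Setd8, from -0.78 to 0.066, Ppp2r5a, from -0.84 to 0.14, Col1a2, from -0.23 to 7.14, and Eef1g, from -0.83 to 0.000. Set-adjusted it turned for Col1a2, from -0.28 to 6.78, Ddx52, from -0.018 to 0.13 and -0.036 with library sizes without globins, and Dnaja1, from -0.025 to 0.14 and -0.033. The cause was not tested. Library sizes from 7756940 counts upward limit what the lowest genes can show. No paired analysis was possible because the labels give no replicate numbers: those used here follow accession order, and the title set was the sole blocking term.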

Other observations

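Across the 6 libraries the genes whose log2 CPM followed Mdm2 most closely were Echdc2, Trp53inp1, Tmcc2, Klf6 and Ccng1, with a Pearson r of 0.998, 0.997, 0.995, 0.995 and 0.993. Tmcc2, a transmembrane protein gene, stood at 48.9, 41.5 and 78.0 CPM in control replicates 1, 2 and 3 and at 195, 256 and 188 in null replicates 1, 2 and 3. Klf6, a Kruppel-like transcription factor, was measured at 15.3, 10.9 and 19.4 CPM and at 74.5, 81.5 and 60.2, in the same order of libraries. Echdc2 was low in controls, at 0.148, 0 and 0.326 CPM, against 3.04, 4.62 and 3.93. These correlations describe 6 libraries that fall into 2 groups, and any gene with a large, even difference between the groups scores high.

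The genes most like Trp53 were Ctse, Ddx52, Actb, Dnaja1 and Eef1g, with a Pearson r of 0.995, 0.995, 0.995, 0.994 and 0.994. They separate the title sets, and over all libraries their null and control levels overlap. Within each set Actb, Dnaja1 and Eef1g were higher in every null library than in any control, and Ctse and Ddx52 were not. Ctse, for the protease cathepsin E, stood at 412, 379 and 491 CPM in the unlettered libraries (control replicates 1 and 2 and null replicate 1) and at 0.791, 0.770 and 2.02 in the lettered ones (control replicate 3 and null replicates 2 and 3). Actb stood between 3654 and 4768 CPM in the unlettered and between 499 and 743 in the lettered libraries. Set-adjusted, 0 of these 5 genes passed between null and control (edgeR quasi-likelihood, adjusted p from 0.0980 to 0.776), with 8.65% of all tested genes called higher and 4.16% lower. The 5 were picked for likeness to Trp53, which follows the title sets and did not pass between the groups. This count was therefore largely set by the choice of genes.

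Among the 6 genes themselves, Mdm2 and Ccng1 had a Pearson r of 0.99 across the libraries, and Mdm4 had 0.83 with Mdm2 and 0.82 with Ccng1. Ppm1d and Trp53 had -0.80, both following the title sets in opposite directions, and the set term of Ppm1d did not pass (log2 difference 0.59, adjusted p = 0.0944). Trp73 had 49 reads in null replicate 2, 1 read in control replicate 2 and none in the other libraries. It was chosen for mention after its values were seen.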
